A study of Homo sapiens with 6 samples.

Results

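The Arp2/3 complex was read through 12 of the 47321 probes on the array, all those annotated to the symbols ARPC1A, ARPC1B, ARPC2, ARPC3, ARPC4, ARPC5, ARPC5L, ACTR2 and ACTR3. These probes cover 8 of the 9 genes, of 20046 named genes with a probe, and the signal of ACTR2 is not analysed here because no probe carried its symbol. ARPC4 was selected on its measured difference between the knockdown lines and the control line, so every value of that difference below is a description and carries no test. Of the 12 probes, 9 passed the detection filter, for which the arrays of a line, in 1 line or more, both had to have a detection p under 0.05. They cover 8 genes, with 2 probes for ARPC4 and 1 for each of the others.

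The arrays profiled HEK293T cells, a human embryonic kidney line that carries a viral large T antigen. The knockdown lines shlinc00598#2 and shlinc00598#3 each stably carried a different lentiviral shRNA against the long noncoding RNA linc00598, and the control line shCTL carried a control shRNA in the same cells. Each of the 3 lines was hybridized on 2 Illumina HumanHT-12 v4 arrays, labelled replicate 1 and replicate 2, which makes 6 arrays. The labels do not say whether replicates came from separate cultures, so a p-value measures only the spread between these arrays, which may be technical, and a line cannot be told apart from its shRNA. No probe carried the name LINC00598, and the depth of the knockdown was not analysed here.

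The complex nucleates a new actin filament on the side of an existing one and so builds branched actin networks, which push membranes in lamellipodia and around endosomes. ACTR2 and ACTR3 (Arp2 and Arp3) are the actin-related subunits that form the template for the new filament. ARPC2 and ARPC4 make up the core that holds the complex to the mother filament, ARPC1 and ARPC5 each come as a pair of paralogs (ARPC1A or ARPC1B, ARPC5 or ARPC5L), and ARPC3 sits beside Arp3. The complex is inactive alone and is switched on by nucleation promoting factors of the WASP, WAVE and WASH families.

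The genes lie on several chromosomes (GRCh38.p14): ARPC4 at chr3:9792518-9807101, ARPC2 at chr2:218217189-218254348, ACTR3 at chr2:113889934-113962596, ARPC3 at chr12:110434823-110450337, ARPC5 at chr1:183620846-183635783 and ARPC5L at chr9:124862130-124877733. ARPC1A (chr7:99325898-99366262) and ARPC1B (chr7:99374259-99394816) are neighbours, with 7997 bp between the end of the first and the start of the second. The annotation ties the 3 ARPC4 probes to different transcripts of that gene, and the exon or UTR each probe matches is not given in the sources used here. The readthrough gene ARPC4-TTLL3 starts 30 bp after the ARPC4 start and shares its region, so signal from ARPC4 and from the readthrough cannot be told apart. TTLL3 itself, a tubulin glycine ligase gene, had no probe past the detection filter.

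The promoters of ARPC4 and ARPC5 are printed because these were the members whose signal differed between the replicates. Each is a RefSeq window of 300 bases on GRCh38.p14, 250 before the gene start and 50 after, written 5′ to 3′ on the strand of the gene, with GC boxes (GGGCGG on either strand, the letters read by Sp1-type factors) in capitals. ARPC4 lies on the plus strand at chr3:9792268-9792567 and ARPC5 on the minus strand at chr1:183635734-183636033.
ARPC4: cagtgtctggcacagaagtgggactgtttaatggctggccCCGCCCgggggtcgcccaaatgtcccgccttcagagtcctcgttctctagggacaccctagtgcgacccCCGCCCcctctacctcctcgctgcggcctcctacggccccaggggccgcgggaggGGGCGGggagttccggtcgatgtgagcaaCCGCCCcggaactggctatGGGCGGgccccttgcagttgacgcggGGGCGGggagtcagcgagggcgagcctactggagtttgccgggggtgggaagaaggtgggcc
ARPC5: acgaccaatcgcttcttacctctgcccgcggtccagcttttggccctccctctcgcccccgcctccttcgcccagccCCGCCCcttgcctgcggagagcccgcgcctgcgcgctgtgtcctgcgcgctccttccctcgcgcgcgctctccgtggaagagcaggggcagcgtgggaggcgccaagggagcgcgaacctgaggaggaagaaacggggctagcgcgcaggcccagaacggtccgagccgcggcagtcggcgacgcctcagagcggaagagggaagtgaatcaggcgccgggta

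The ARPC4 window held 6 GC boxes and the ARPC5 window 1. At least 1 GC box was found in 10 of the 11 windows listed for 8 members, some of which overlap, and in 45.0% of all 35116 promoter windows of that length, and 2.86% of all windows held as many as ARPC4 or more. The GC content was 69.3% for ARPC4 and 70.7% for ARPC5, against a median of 58.7% over all windows. A CCAAT box (CCAAT, 34.6% of all windows) was found in ARPC5 but not in ARPC4. The letters CCGGAAG (ETS factors, 10.3% of all windows), GCATGCGC (NRF1, 3.05%) and AAGATGGC (YY1, 2.89%) were found in neither. Among the 8 members with a window, 3 genes held the ETS letters, 2 (ARPC1A and ACTR3) the NRF1 letters and 1 (ACTR3) the YY1 letters. TGACGTCA (CRE, 1.85%), GTAAACA (FOXO factors, 3.42%) and TATAAA (read by the TATA-binding protein, 11.5%) were in none of the 11. Both strands were searched for each motif. The 8 members with a window include ACTR2, which had no probe, and leave out ARPC1B, which had no window.

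Between 20864 and 22134 probes were detected on an array, and the median intensity lay between 105.4 and 126.2. Of 8 genes set as markers of HEK293T cells, 6 were detected on all 6 arrays, and PAX2 and PAX8 were detected on none. Of 8 genes set as markers of blood cells and fibroblasts, 7 had a probe, of which 3 were detected on no array and 2, CD14 and COL1A1, on all 6. The values below follow the sample names of the intensity table. The authors' processed table holds the same values, but 4 of its 6 columns carry the name of another line or replicate than the intensity table gives that array, and which naming is right could not be settled here. Values of ARPC4, and of other members where they changed, are therefore also given under the names of the processed table.

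ARPC4 had the largest differences from shCTL in the complex, with both detected probes higher in the knockdown lines. Values are log2 intensities after quantile normalization over all arrays, given for replicate 2 and then replicate 1. The first ARPC4 probe (ILMN_1707336) read 10.21 and 9.60 in shlinc00598#2, 10.10 and 9.47 in shlinc00598#3, and 9.78 and 8.82 in shCTL. In each replicate both knockdown arrays lay above the shCTL array, but the groups overlapped, because shCTL replicate 2 lay above replicate 1 of both knockdown lines. The second probe (ILMN_2393763) read 10.14 and 9.48 in shlinc00598#2, 10.13 and 9.35 in shlinc00598#3, and 9.50 and 9.05 in shCTL. It showed the same layout, with overlap by the same array. The third probe (ILMN_1803183) was detected on 0 of the 6 arrays and read between 6.61 and 6.77 in the knockdown lines, so it gave no level for the transcript it stands for.

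The mean of both knockdown lines lay 0.54 above shCTL for the first ARPC4 probe (log2, 1.46-fold, SE 0.35, limma fit to all 6 arrays), with 0.61 in shlinc00598#2 and 0.48 in shlinc00598#3. For the second probe it was 0.50 (1.42-fold, SE 0.30), with 0.54 in shlinc00598#2 and 0.46 in shlinc00598#3. The SEs of knockdown minus shCTL here and below come from a fit with no replicate term. With the replicate number as a block the SE was 0.10 for each ARPC4 probe. Compared within a replicate, the first probe was 0.78, 0.43, 0.65 and 0.31 above shCTL (shlinc00598#2 in replicates 1 and 2, then shlinc00598#3 in replicates 1 and 2). The second probe gave 0.43, 0.64, 0.29 and 0.63 in the same order. The larger differences thus fell in replicate 1 for the first probe and in replicate 2 for the second. Among the 21282 kept probes, 25 had a higher mean difference than the first ARPC4 probe and 42 than the second.

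The size of the ARPC4 difference moved with the control arrays used and with the naming of the arrays. In fits with no replicate term, where the difference between replicates enters, the first probe differed by 0.06 without the shCTL replicate 1 array and by 1.03 without the shCTL replicate 2 array, and the second by 0.28 and 0.72 in that order. With the replicate number as a block, a fit chosen after seeing the data, the first probe differed by 0.37 and 0.72 and the second by 0.64 and 0.36. The sign was thus the same for both probes whichever control array was left out. Under the sample names of the processed table the difference was 0.22 for the first probe and 0.02 for the second.

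**Figure D1:**
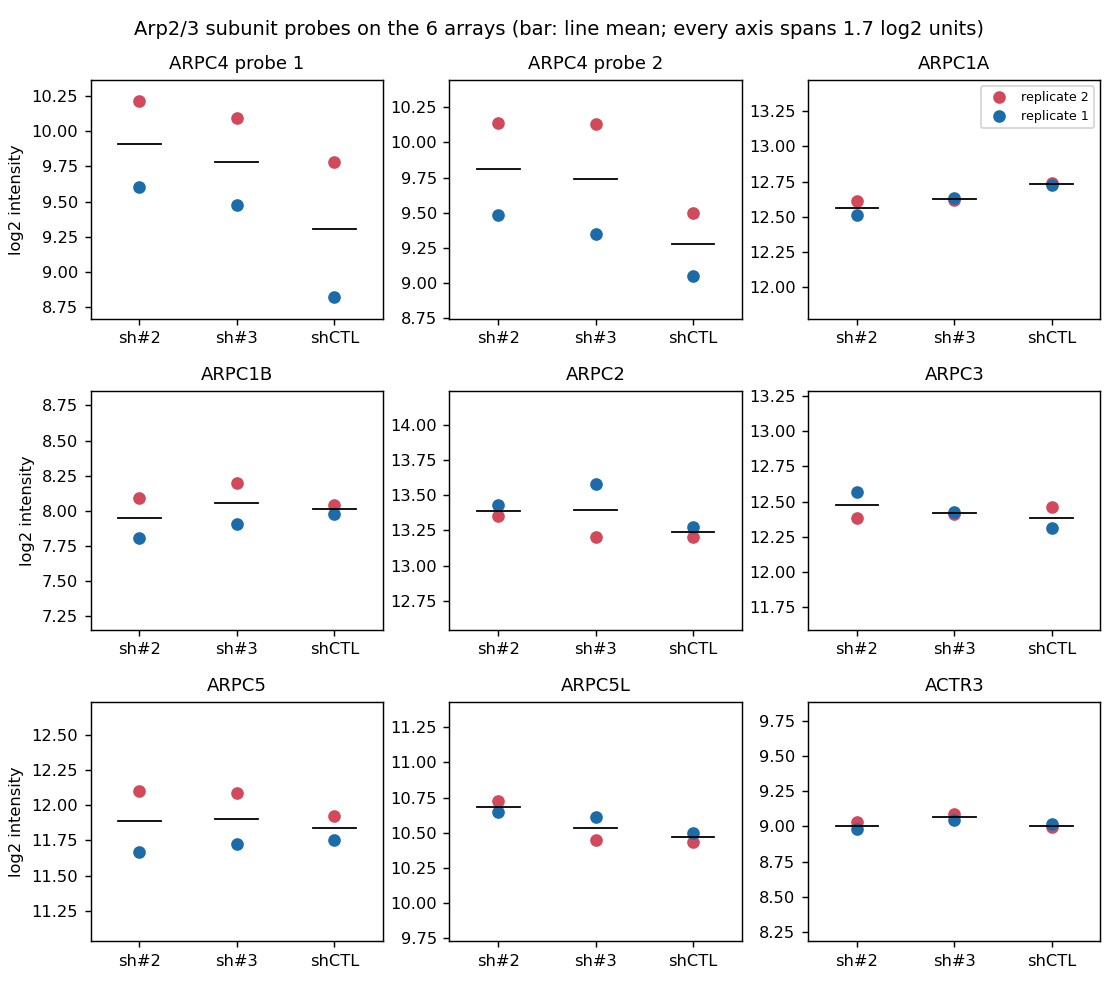
Log2 intensity of the 9 kept Arp2/3 probes (vertical axes, 1.7 log2 units in every panel) on the 6 arrays, by line (sh#2, shlinc00598#2; sh#3, shlinc00598#3; shCTL), with replicates coloured and the mean of each line as a bar. Both ARPC4 probes spread over more than 1 log2 unit, with replicate 2 above replicate 1 in every line, and the ARPC1A arrays of the knockdown lines all lie below those of shCTL.

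ARPC1A, a propeller-shaped WD-repeat subunit, was the member whose groups did not overlap. It read 12.61 and 12.51 in shlinc00598#2, 12.62 and 12.63 in shlinc00598#3, and 12.74 and 12.72 in shCTL, again with replicate 2 given before replicate 1. All 4 knockdown arrays lay below both shCTL arrays, with a mean difference of -0.14 (SE 0.11). Scaling to the median in place of quantile normalization gave -0.07, and the names of the processed table gave -0.04. Under those names the groups overlapped, since the array at 12.74 was named shlinc00598#2 replicate 1 and that at 12.61 shCTL replicate 2. Under the names of the intensity table, the probe was 1 of 9 with no overlap, against 10.7% of all kept probes.

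ARPC2, the partner of ARPC4 in the core, had the largest mean difference of the other members, at 0.15 (SE 0.14). Its detected probe read 13.35 and 13.43 in shlinc00598#2, 13.20 and 13.58 in shlinc00598#3, and 13.20 and 13.27 in shCTL. The difference within a replicate ranged between 0.00 and 0.31, and the groups overlapped at the low end. The other ARPC2 probes were each detected on 1 of 6 arrays; the third of them read 7.40 on shlinc00598#3 replicate 2 and between 6.45 and 6.84 on the remaining arrays, and neither was kept.

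ARPC5L, the paralog of ARPC5, was higher in all 4 within-replicate comparisons, by 0.01 to 0.29, with a mean of 0.14 (SE 0.11). It read 10.72 and 10.65 in shlinc00598#2, 10.45 and 10.61 in shlinc00598#3, and 10.44 and 10.50 in shCTL. The shlinc00598#2 arrays lay above both shCTL arrays, and the shlinc00598#3 arrays lay on either side of shCTL replicate 1. ARPC5 itself, which read 12.10 and 11.67 in shlinc00598#2, 12.08 and 11.73 in shlinc00598#3, and 11.92 and 11.75 in shCTL, differed by 0.06 (SE 0.18), with both signs among the 4 comparisons. Under the names of the processed table both differences turned in sign, to -0.08 for ARPC5L and -0.08 for ARPC5.

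The remaining members stayed within 0.10 of shCTL on average. ARPC3 read 12.38 and 12.57 in shlinc00598#2, 12.42 and 12.43 in shlinc00598#3, and 12.46 and 12.31 in shCTL, a mean difference of 0.06 (SE 0.12). ARPC1B, the paralog of ARPC1A that is known for its part in blood cells, read 8.09 and 7.81 in shlinc00598#2, 8.20 and 7.91 in shlinc00598#3, and 8.04 and 7.98 in shCTL, a difference of -0.01 (SE 0.15). ACTR3 was the steadiest, with 9.03 and 8.98 in shlinc00598#2, 9.09 and 9.04 in shlinc00598#3, and 8.99 and 9.01 in shCTL. Its difference was 0.03 (SE 0.10), and its 6 arrays spanned 0.11 log2 units, against 0.44 for ARPC5 and 1.09 for the second ARPC4 probe.

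Set against the rest of the complex, the first ARPC4 probe lay 0.49 above the median difference of the 7 other kept probes, and the second 0.44 above it. That median was 0.06, with a range of -0.14 (ARPC1A) to 0.15 (ARPC2), and in the mean of each knockdown line both ARPC4 probes lay above all 7. Within a replicate this did not always hold, since in shlinc00598#3 replicate 1 the second ARPC4 probe differed from shCTL by 0.29 and ARPC2 by 0.31. The lowest gap within a replicate was 0.27, for the second probe in shlinc00598#3 replicate 1, and the highest was 0.82, for the first probe in shlinc00598#2 replicate 1. Under the names of the processed table the gap was 0.26 for the first probe and 0.059 for the second, and ARPC3 (0.12) and ARPC2 (0.044) then lay above the second ARPC4 probe (0.018). With single arrays left out the gap of the first probe was as low as 0.075 (without shCTL replicate 1, no block), and with the replicate block it was 0.30 without that array. Because ARPC4 was chosen for this contrast, the gap has no test.

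Of the 9 kept probes, 4 kept one sign in all 4 within-replicate comparisons (both ARPC4 probes and ARPC5L higher, ARPC1A lower) and 5 had both signs, against 31.6% of all kept probes with one sign. None was at least 1.4-fold from shCTL in both lines, against 0.0611% of kept probes that were higher by that much and 0.277% that were lower. The first ARPC4 probe missed this criterion by its shlinc00598#3 value of 0.48, where 1.4-fold is 0.49. In the limma fit of the mean of both lines, 0% of kept probes had an adjusted p under 0.05 (393 had an unadjusted p under 0.05, none of them a member). With the replicate number as a block 0.0517% did, again with 0 members (2934 of all kept probes and 2 members at an unadjusted p under 0.05); the rule used this contrast, and nothing is read from these counts for the members.

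**Figure D2:**
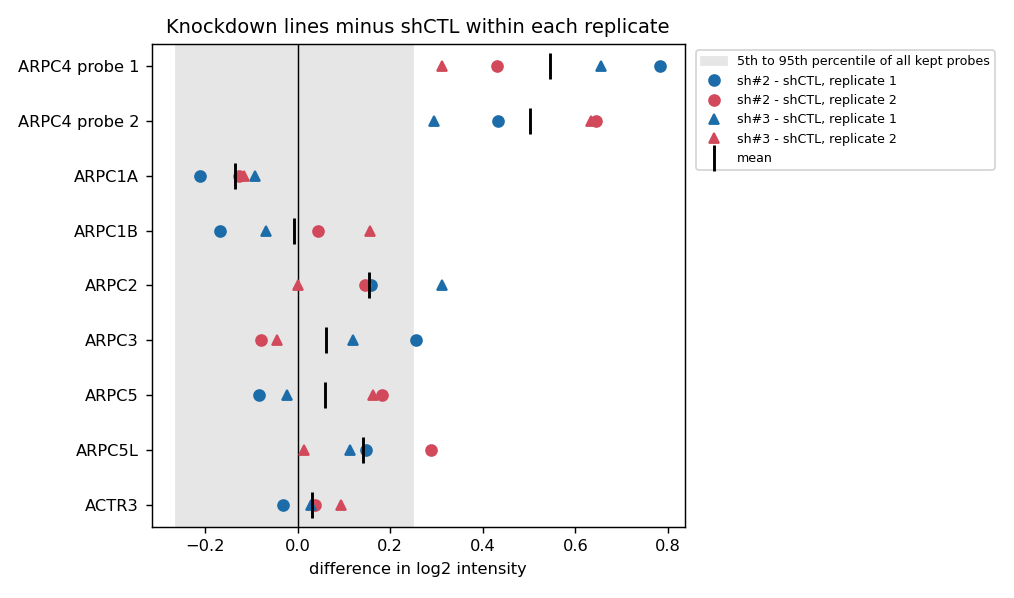
Difference in log2 intensity between a knockdown line and shCTL within each replicate (horizontal axis) for the 9 kept probes, with circles for shlinc00598#2, triangles for shlinc00598#3 and the mean as a bar; the grey band holds the 5th to 95th percentile of the mean difference over all kept probes. All 4 points of both ARPC4 probes lie at 0.29 or above, and the means of the other 7 probes lie between -0.14 and 0.15. The band is for means, and single comparisons spread more widely. For shlinc00598#3 the 95th percentile was 0.33 in replicate 1, above the second ARPC4 probe (0.29). In replicate 2 it was 0.36, above the first ARPC4 probe (0.31). The remaining ARPC4 points lay above the 95th percentile of their comparison.

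The shlinc00598#2 and shlinc00598#3 lines could be compared by a test, since this contrast did not choose the members. No member was called (limma, 0 of 9), against 0% of kept probes with or without the replicate block, and 0 members had an unadjusted p under 0.05 in either fit (258 of all kept probes without the block and 1825 with it). ARPC5L had the largest difference, at 0.15 higher in shlinc00598#2 (SE 0.13, limma adjusted p = 1.00, and 0.73 with the block). The ARPC4 probes differed by 0.12 (SE 0.40) and 0.07 (SE 0.35), with an SE of 0.12 each in the blocked fit. Differences within these errors were not detectable with 2 arrays a line. Larger ones could also go uncalled, as the ARPC5L difference exceeded its SE.

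ARPC4 also separated the replicates. This contrast is independent of the one that chose it, and was tested with limma in a fit with a term for the line. The first probe was higher in replicate 2 by 0.73 (1.66-fold, SE 0.10, limma adjusted p = 0.000469), with 0.61 in shlinc00598#2, 0.62 in shlinc00598#3 and 0.97 in shCTL. The second probe was higher by 0.63 (1.55-fold, SE 0.09, limma adjusted p = 0.000846), with 0.66 in shlinc00598#2, 0.78 in shlinc00598#3 and 0.44 in shCTL. Both were thus higher in replicate 2 in 3 of 3 lines.

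ARPC5, which joins ARPC1 and ARPC4 at one end of the complex, was also higher in replicate 2, by 0.32 (1.25-fold, SE 0.09, limma adjusted p = 0.0197). It was higher by 0.44 in shlinc00598#2, 0.36 in shlinc00598#3 and 0.17 in shCTL. Its call was lost with neqc background correction (adjusted p = 0.068) and when an array of either knockdown line was left out (0.0997 to 0.119). ARPC1B was 0.21 higher in replicate 2 (limma adjusted p = 0.092) and ARPC2 was 0.18 lower there (difference of -0.18, limma adjusted p = 0.18), and neither passed the threshold. ARPC1A, ARPC3, ARPC5L and ACTR3 differed by -0.05 to 0.03, with limma adjusted p-values of 0.71 to 0.91.

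In all, 3 of 9 kept probes were called higher in replicate 2, against 18.7% of all kept probes, and 0 were called lower, against 17.9%, in limma; 1 further member, ARPC1B, had an unadjusted p under 0.05. The value of replicate 2 minus replicate 1 was higher than that of the first ARPC4 probe in 2.01% of kept probes, and higher than that of the second in 3.53%. ARPC4 exceeded the mean of the other 7 probes in this contrast by 0.68 ± 0.22 for the first probe and 0.58 ± 0.18 for the second (SD, n = 3 lines). The gap was positive in 3 of 3 lines for each, and the exact two-sided permutation test over lines gave p = 0.25, the smallest that 3 lines allow. Under the sample names of the processed table no member was called between replicates (limma adjusted p = 1.00), with differences of 0.53 for both ARPC4 probes and 0.19 for ARPC5.

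**Figure D3:**
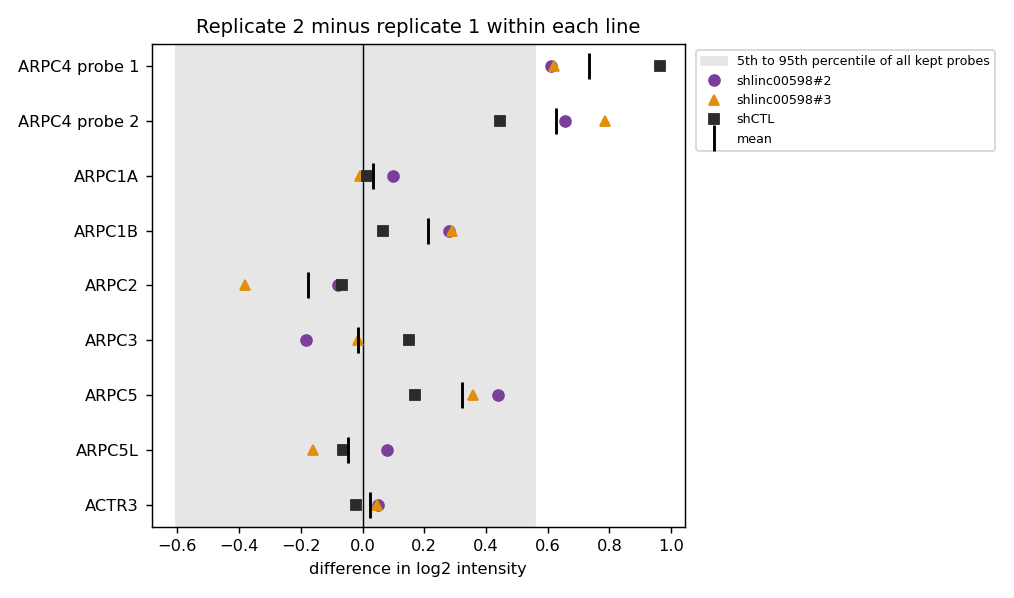
Difference in log2 intensity, replicate 2 minus replicate 1 (horizontal axis), in each line for the 9 kept probes, with the mean as a bar and the 5th to 95th percentile of the mean over all kept probes in grey. Both ARPC4 probes lie at 0.44 or above in every line, ARPC5 between 0.17 and 0.44, and the other probes between -0.38 and 0.29. The 95th percentile of single lines was 0.623 in shlinc00598#2, 0.627 in shlinc00598#3 and 0.586 in shCTL. The first ARPC4 probe lay below it in both knockdown lines (0.612 and 0.621) and the second in shCTL (0.444). The remaining ARPC4 points lay above it.

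The profile of ARPC4 over the 6 arrays was compared with those of 12191 other named genes, each centred on its own mean, by the root mean square difference (log2). The nearest were UBE2Q1 (0.073), a ubiquitin-conjugating enzyme gene, PIGW (0.10), which acts in GPI anchor synthesis, ALYREF (0.12), an mRNA export adaptor, DPH2 (0.12), which acts in diphthamide synthesis, and ZNF480 (0.12), a zinc finger gene. The second ARPC4 probe was at 0.16, and 34 genes lay nearer than it. Of the other subunits ARPC5 came closest, at 0.34 with 1761 genes nearer, and the remaining members had between 3458 and 6998 genes nearer than they were. For the second ARPC4 probe the nearest 5 genes were ZSCAN5A, SNORA73A, DOLK, DHX34 and ISOC2, none of which was among the nearest 5 of the first.

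Genes that act with the complex, and neighbours of ARPC4 on chromosome 3, were read by their brightest kept probe. Over all 8 lists, neighbours included, 42 of 98 genes (42.9%) had one sign in all 4 within-replicate comparisons, against 32.8% of the 12192 named genes. The 16 measured neighbours were listed by position, and 7 of them were higher and 3 lower in all 4 comparisons. The share without the neighbours was not computed. With median scaling these numbers were 33 of 98 (33.7%) and 26.8%. By direction, 20 of the 98 were higher and 22 lower than shCTL, where 15.6% of all named genes were higher and 17.2% were lower. None of the 98 was at least 1.4-fold from shCTL in both lines, against 6 higher and 43 lower of the 12192 named genes. In the mean of both lines limma called 0 of all named genes without the replicate block and 7 with it, none of them among the 98. This contrast is the one that chose ARPC4, and the values are descriptions. All list values follow the sample names of the intensity table and were not computed under those of the processed table.

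Among the nucleation promoting factors of the WASP and WAVE families, 3 of 14 measured genes were higher in all 4 comparisons and 3 were lower. Over all named genes 15.6% were higher and 17.2% lower, and the median difference of the list was -0.01. CYFIP2, a subunit of the WAVE regulatory complex, had a difference of -0.33, and ABI1, another, -0.21. WHAMM, which activates Arp2/3 at the Golgi and on tubular membranes, had 0.32. In the WASH complex, which activates Arp2/3 on endosomes, 3 of 5 measured genes were higher in all 4 comparisons and 0 lower, with a median of 0.15 against -0.00 over all named genes. WASHC2C had 0.33, WASHC2A 0.23 and WASHC3 0.13, where WASHC2C and WASHC2A are near-identical copies whose probes may share signal.

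The GTPases and adaptors that switch on these factors showed 0 of 14 higher and 2 lower (15.6% and 17.2% of all named genes). The lower genes were BAIAP2L1 at -0.27 and RAC1 at -0.04, and the median of the list was -0.09. Of the inhibitors and branch disassembly factors 2 of 14 were higher and 3 lower, with CORO2A at -0.48, CORO7 at -0.21 and GMFG at 0.14, where CORO2A and CORO7 are coronins and GMFG is a glia maturation factor that takes branches apart. The formins and other nucleators, which start unbranched filaments without Arp2/3, had 1 of 15 higher and 6 lower (15.6% and 17.2% of all named genes), with a median of -0.14. FMN2 had -0.31, FHOD1 -0.26 and FMNL2 -0.18.

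Of the actins, profilins, monomer-binding and capping genes 2 of 14 were higher and 3 lower (15.6% and 17.2% of all named genes). TMSB4X, thymosin beta 4, which sequesters actin monomers, had the largest difference of all the lists, at -0.57 (-0.69 in shlinc00598#2 and -0.45 in shlinc00598#3), EVL had -0.16 and ACTB 0.13. Actin-related proteins other than the listed subunits, ACTR3B among them, had 3 of 7 higher and 2 lower. ACTR8 had 0.42 and ACTR5 0.25, both chromatin remodeller subunits, and ACTR6 had -0.20.

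ARPC4 stands beside other genes on the short arm of chromosome 3, and 16 of the 25 listed neighbours were measured. Of these, 7 were higher in all 4 comparisons and 3 were lower, against 15.6% and 17.2% of all named genes, with a median of 0.13. TATDN2 had 0.33, JAGN1 0.25 and CRELD1 -0.27. TADA3, a subunit of histone acetyltransferase complexes, had 0.14, BRPF1, a scaffold of another, had 0.24, and BRK1, the smallest subunit of the WAVE complex, had 0.17. IRAK2 and SEC13, lower in all 4 comparisons like CRELD1, had -0.21 and -0.05. None reached the 0.50 of the second ARPC4 probe.

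**Figure D4:**
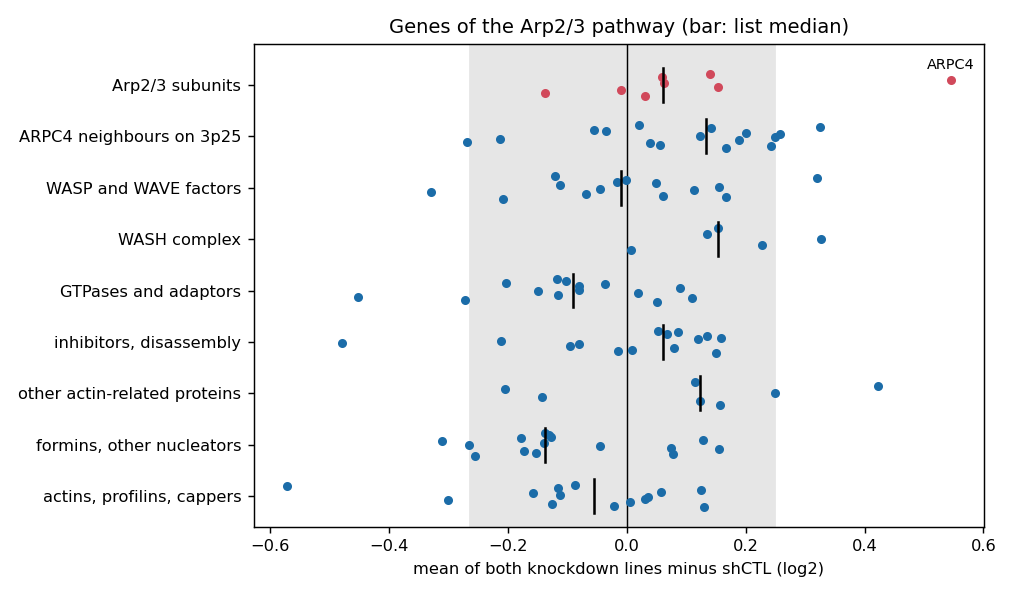
Mean of both knockdown lines minus shCTL (log2, horizontal axis) for the brightest kept probe of each measured gene, by list, with the median of a list as a bar and the 5th to 95th percentile over all kept probes in grey. ARPC4 lies at 0.54, above every other gene shown, and the other subunits lie between -0.14 and 0.15.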

How the data were processed

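Total RNA of 3 stable HEK293T lines was hybridized to 6 Illumina HumanHT-12 v4 arrays. The authors exported the data with GenomeStudio 2011.1 and deposited raw probe intensities, each with its detection p-value. They also deposited processed values, quantile-normalized on the log2 scale, of which 4 of 6 columns matched the intensities of an array with another sample name (Spearman rho of 1); these served as an alternative.

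With limma 3.58.1 (R 4.3.3), log2 intensities were quantile-normalized, and no background was subtracted. A probe was kept where the arrays of some line both had a detection p under 0.05, which left 21282 of 47321. Of the full set, 30113 carried 1 gene symbol, 8 several and 17200 none, from the platform annotation. One fit to the 6 arrays gave the line contrasts, and a fit with line and replicate gave the replicate contrast; p-values were adjusted by the Benjamini-Hochberg method over the kept probes, with a threshold of 0.05. The fits were also run on simulated data with independent noise, where only a chosen set of probes had a replicate shift. They therefore do not show how a fit with no replicate term behaves on these arrays.

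Replicate numbers come from the labels. Deviations from line means correlated across probes at 0.824 (shlinc00598#2 with shlinc00598#3), 0.739 (shlinc00598#2 with shCTL) and 0.759 (shlinc00598#3 with shCTL), so the numbers were taken to pair the arrays, and a replicate block was an alternative.

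The members, lists and tests were chosen with earlier results of these data known. The named genes are all member probes, up to 3 genes of each list with one sign in all 4 within-replicate comparisons and the largest mean difference, the measured neighbours of ARPC4, and the 5 genes nearest to ARPC4 in profile. Alternatives were neqc background correction (offset 16), median scaling, the processed values, dropping the detection filter or tightening it to 0.01 on every array, the brightest probe of each gene, the replicate block, the t-test named in the methods and each array left out. The number of arrays limits the precision, and signals near background have compressed folds.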

Additional observations from a re-analysis of the deposited data

How the results depend on the processing

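The first ARPC4 probe stayed above shCTL under every alternative run, at 0.62 with neqc background correction and 0.59 with median scaling, but at 0.22 under the sample names of the processed table, whose names differ for 4 arrays. With single arrays left out it ranged between 0.062 and 1.03, and its gap to the other subunits between 0.075 and 0.92. With arrays left out and the replicate block kept (chosen after seeing the data) it ranged between 0.37 and 0.72, and the gap between 0.30 and 0.72. The count of member probes at least 1.4-fold from shCTL in both lines was 0, but 2 with neqc, 2 from the mean of both lines (chosen after seeing the data), and 0 to 2 with arrays left out (2 without shlinc00598#3 replicate 1 or shCTL replicate 2). The share of all kept probes past that fold was not counted under these alternatives. The methods' t-test of knockdown against shCTL found 1 of 9 member probes at an unadjusted p under 0.05, against 898 of all 21282 kept probes. After Benjamini-Hochberg it found 0 members and 0 of all kept probes. This contrast chose ARPC4, and nothing is read from these counts for the members. The count called between replicates was 3, but 0 in the processed table and 2 to 4 with arrays left out. With the replicate block the SE of the ARPC4 difference was 0.10 in place of 0.35, its value stayed 0.54, and no member's call changed. Of 98 genes of the other lists, 42 kept one sign under quantile normalization and neqc and 33 under median scaling. Members called between the knockdown lines numbered 0 under every alternative. With 2 arrays a line, differences within the standard errors given were not detectable, and larger ones could also go uncalled.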
